A study of Sus scrofa with 18 samples.

Results

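The insulin-like growth factor (IGF) and myostatin axis of skeletal muscle was examined through 10 genes, IGF1, IGF2, IGF1R, IGFBP3, IGFBP5, IRS1, IRS2, MSTN, ACVR2B and FST. A probe set, the group of probes that reports 1 transcript on the array, was taken as a member when its annotation held 1 of these symbols as its only gene name. By this rule 7 of the 10 genes had 1 probe set each, which is 7 of 25388 probe sets on the array. IGF2, IGFBP5 and IRS2 carried no probe set of that single name and were not analysed here. Expression was measured in gastrocnemius muscle of male pigs, crosses of Piétrain with German Landrace × German Edelschwein, that started at an age of 5 weeks and were killed on day 29 in the fed state. Group CON received a diet with 0% insect meal from Tenebrio molitor L., group IM5 a diet with 5% and group IM10 a diet with 10%, in place of 0, 50 and 100% of the soybean extraction meal, for 4 weeks. The 3 diets had the same nitrogen content, but cellulose, oils and added amino acids also differed between them, so that insect meal and these components cannot be told apart. From 10 pigs per group in the trial, 6 per group were on arrays, and the pigs shared pens that are not named per pig, so that the P-values measure the spread between pigs as if each were independent.

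IGF1, made in the liver and in muscle itself, binds the receptor tyrosine kinase IGF1R, which passes the signal through the adaptor proteins IRS1 and IRS2 to the kinase AKT and so to protein synthesis. Myostatin, encoded by MSTN, is a ligand of the TGF-beta family that restrains muscle growth, and its loss gives the double-muscled phenotype of cattle. It binds the activin receptor ACVR2B, signals through SMAD proteins, and is neutralized by the secreted protein follistatin (FST).

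The arrays had medians between 4.91 and 5.00 on the log2 scale and correlated with each other at 0.977 to 0.991 over all probe sets. No pair of arrays held identical values. Replicate 2 of group IM10 had the lowest mean correlation with the other arrays, 0.981. The muscle label was borne out by fibre markers, among which MYH1, a fast myosin heavy chain, had a mean log2 level of 12.88, CASQ1, a calcium-binding protein of the sarcoplasmic reticulum, of 12.84 and ACTA1, the skeletal actin, of 12.04.

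No member passed the test for a difference between diets. A probe set was called at an unadjusted limma P under 0.05 together with a fold change (FC) beyond 1.2, and 0 of 7 members were called in group IM10 compared with group CON, where 2.29% of all probe sets were called (1.12% higher and 1.17% lower). In group IM5 compared with group CON, 0 of 7 members were called against 2.10% of all probe sets (1.09% higher and 1.01% lower). In group IM10 compared with group IM5, 0 of 7 were called against 2.75% (1.43% higher and 1.32% lower). At an unadjusted limma P under 0.05 alone, 0 of 7 members passed in each comparison. The unpaired test of the methods also called 0 of 7 at both thresholds, and Benjamini-Hochberg adjusted limma p-values of the members lay between 0.931 and 0.998. The values of 2 groups did not overlap for 0 of 7 members in each comparison, while this was so for 0.213% of all probe sets between groups IM10 and CON, 0.150% between IM5 and CON and 0.177% between IM10 and IM5. Beside such low background shares, a count of 0 of 7 is no result particular to this axis, and the intervals given for each gene show which sizes of difference these pigs leave possible.

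**Figure D1:**
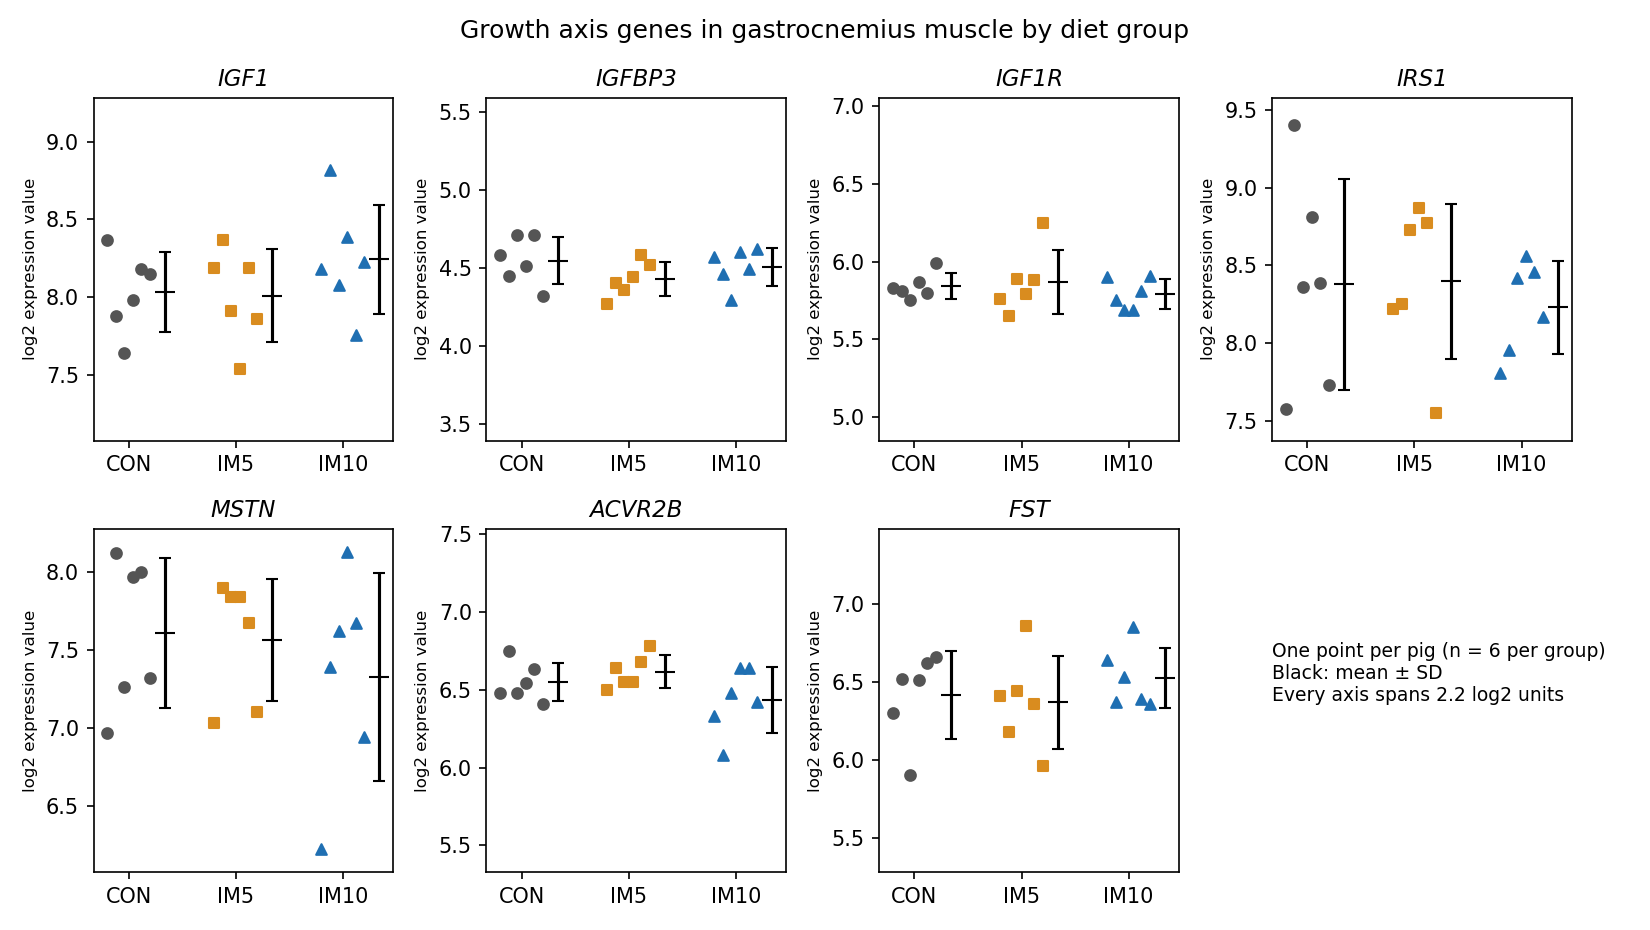
Log2 expression level (RMA) of the 7 measured members in each pig of groups CON, IM5 and IM10, 6 pigs a group, 1 panel a gene, with the group mean and SD as bars. Every axis spans the same width on the log2 scale, and the groups overlap in all 7 panels, with the widest scatter for MSTN and IRS1.

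The ligand IGF1 ranged from 7.64 to 8.37 with a median of 8.07 on the log2 scale in group CON, from 7.54 to 8.37 with a median of 8.05 in group IM5, and from 7.76 to 8.82 with a median of 8.21 in group IM10. The 3 ranges overlapped over most of their width, and the highest value of all pigs stood in replicate 2 of group IM10. In group IM10 compared with group CON the mean IGF1 level differed by 0.21 on the log2 scale (SE 0.161, limma P = 0.206, exact permutation P = 0.273, adjusted p = 0.991), with 5 of 6 pigs above the mean of group CON. This corresponds to an FC of 1.16, with a 95% confidence interval from 0.917 to 1.46. Without replicate 2 of group IM10 the difference was 0.09. The difference between groups IM5 and CON was -0.02 (95% confidence interval -0.36 to 0.31), and that between IM10 and IM5 was 0.23 (-0.10 to 0.57). The latter passed both thresholds only when replicate 5 of group IM10, its lowest pig, was left out (0.33, limma adjusted p = 0.877).

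IGFBP3, the main carrier of IGFs in blood, was the dimmest member, with a median log2 level of 4.55 in group CON, 4.42 in IM5 and 4.53 in IM10. Its level stood at the percentile 39.7 of all probe sets, so that it was not among the dimmest 30%. Its 18 values lay within 0.44 of each other, from 4.27 to 4.71, and the groups overlapped. Group IM5 had 5 of 6 pigs below the mean of group CON, with a difference of -0.12 (SE 0.0847, limma P = 0.177, exact permutation P = 0.167, adjusted p = 0.998). Compared with group CON, the 95% confidence interval of the log2 difference ran from -0.29 to 0.06 for group IM5 and from -0.22 to 0.13 for group IM10.

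The receptor IGF1R varied as little. Its log2 levels were 5.75 to 5.99 (median 5.82) in group CON, 5.65 to 6.25 (median 5.84) in group IM5 and 5.69 to 5.91 (median 5.78) in group IM10. Replicate 6 of group IM5 alone lay above 5.99. The log2 difference was -0.05 between groups IM10 and CON (95% confidence interval -0.23 to 0.13) and 0.03 between IM5 and CON (-0.16 to 0.21), so that both intervals lay within an FC of 1.2 in either direction.

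IRS1, the adaptor downstream of the IGF1 and insulin receptors, had a much wider scatter. Its log2 level ran from 7.58 to 9.40 (median 8.38) in group CON, from 7.55 to 8.87 (median 8.49) in group IM5 and from 7.81 to 8.56 (median 8.30) in group IM10. The highest and the second lowest of all 18 values both stood in group CON, whose SD of 0.677 was above those of group IM5 (0.499) and group IM10 (0.30); the difference between these SDs was not tested. The group means were closer together than the pigs within a group, with -0.15 between groups IM10 and CON (SE 0.261, limma P = 0.576, exact permutation P = 0.652, adjusted p = 0.993), 0.02 between IM5 and CON and -0.17 between IM10 and IM5. The 95% confidence interval of the FC between groups IM10 and CON ran from 0.619 to 1.31, so that a fall by 38.1% or a rise by 31.5% remained within the error. Without replicate 2 of group CON, the highest pig, the difference was 0.06 and so had the other sign.

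On the myostatin side, MSTN had log2 levels of 6.97 to 8.12 (median 7.65) in group CON, 7.03 to 7.90 (median 7.76) in group IM5 and 6.22 to 8.13 (median 7.51) in group IM10. Group IM10 held both the lowest and the highest value of all pigs. The mean difference of -0.28 between groups IM10 and CON (SE 0.266, limma P = 0.308, exact permutation P = 0.442, adjusted p = 0.991) was the only one among the members beyond an FC of 1.2, at 0.825, yet 3 of 6 pigs lay below the mean of group CON and 3 above it. The 95% confidence interval of this FC reached from 0.561 to 1.21. Replicate 1 of group IM10, with the level of 6.22, decided this value, since the difference was -0.06 without it. Groups IM5 and CON differed by -0.04 (95% confidence interval -0.60 to 0.51) and groups IM10 and IM5 by -0.24 (-0.79 to 0.32), the latter being -0.01 without the same pig.

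Its receptor ACVR2B spanned 6.41 to 6.75 (median 6.51) in group CON, 6.50 to 6.78 (median 6.60) in group IM5 and 6.08 to 6.64 (median 6.45) in group IM10. The lowest value of all pigs belonged to replicate 2 of group IM10. Between groups IM10 and IM5 the difference was -0.19 (SE 0.0938, 95% confidence interval -0.38 to 0.01), the lowest P-value of any member in any comparison (limma P = 0.0622, exact permutation P = 0.0844, adjusted p = 0.931). Without replicate 2 of group IM10 it was -0.11. From group CON, group IM10 differed by -0.12 (95% confidence interval -0.31 to 0.08) and group IM5 by 0.07 (-0.13 to 0.26).

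FST, the secreted antagonist of myostatin and activins, ranged from 5.90 to 6.66 (median 6.52) in group CON, from 5.96 to 6.86 (median 6.39) in group IM5 and from 6.36 to 6.85 (median 6.46) in group IM10. The 3 ranges overlapped, with the lowest pig in group CON and the highest in group IM5. The differences were 0.11 between groups IM10 and CON (95% confidence interval -0.19 to 0.40), -0.05 between IM5 and CON (-0.34 to 0.24) and 0.16 between IM10 and IM5 (-0.14 to 0.45). Without replicate 3 of group CON, the lowest pig, the first of these was 0.0013, and without replicate 6 of group IM5 the last was 0.07.

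**Figure D2:**
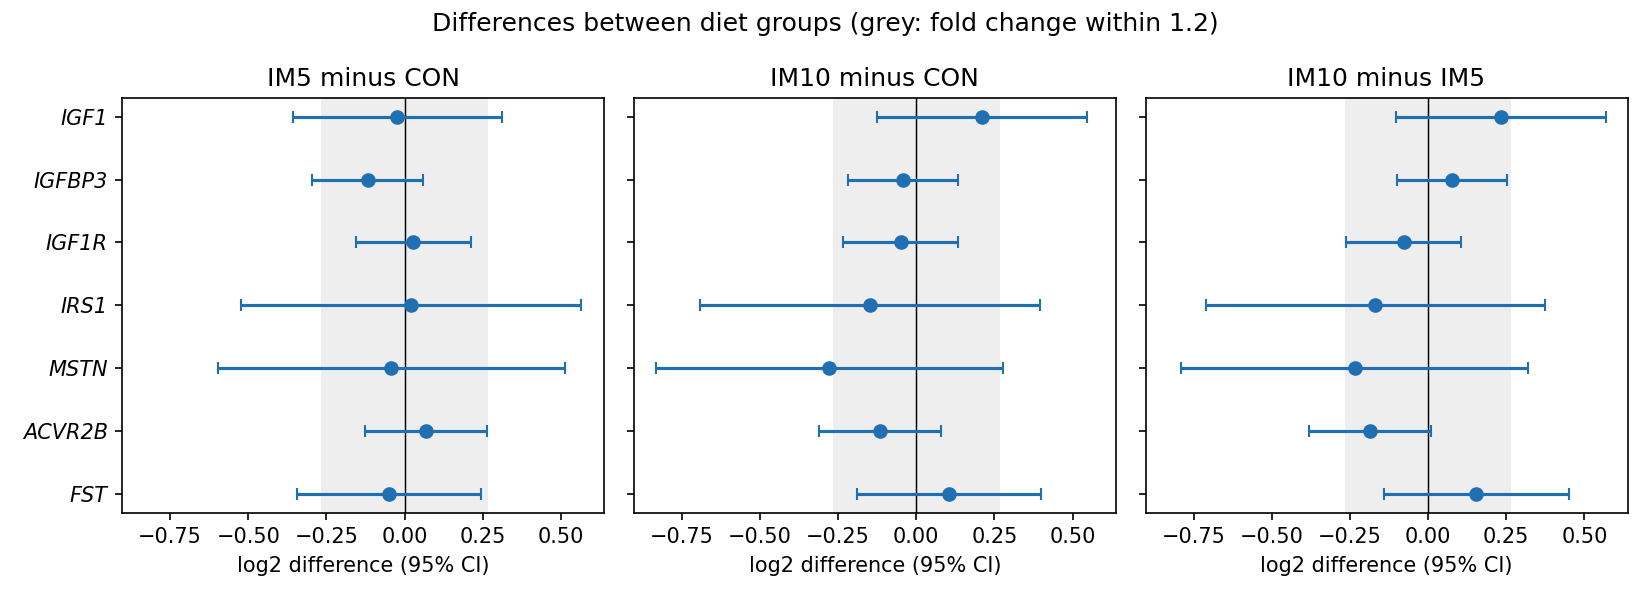
Difference of the mean log2 level between 2 groups for each member (points) with its 95% confidence interval from limma (lines), for the 3 comparisons, with the grey band marking an FC within 1.2 in either direction. All 21 intervals include 0, and those of MSTN and IRS1 reach far beyond the band while those of IGF1R and IGFBP3 are short.

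The members differed in how much pigs of the same group varied. The SD within groups was 0.527 on the log2 scale for MSTN and 0.515 for IRS1, larger than for 98.6% and 98.5% of all probe sets. It was 0.305 for IGF1 and 0.263 for FST, at the percentiles 88.2 and 80.5. For ACVR2B, IGF1R and IGFBP3 it was 0.153, 0.140 and 0.130, at the percentiles 24.7, 16.9 and 11.8. From the lowest to the highest of 18 pigs the level of MSTN differed 3.76-fold and that of IRS1 3.61-fold, against 2.43-fold for IGF1, 1.95-fold for FST, 1.62-fold for ACVR2B, 1.52-fold for IGF1R and 1.36-fold for IGFBP3. The median size of the difference between groups IM10 and CON over the 7 members was 0.117, compared with 0.0783 over all probe sets. It was 0.0433 against 0.0700 between groups IM5 and CON, and 0.168 against 0.0817 between IM10 and IM5. The medians over all probe sets are not matched for the spread within groups. That spread was larger for MSTN, IRS1, IGF1 and FST than for most probe sets, so that these sizes cannot be compared directly.

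The levels of MSTN and IRS1 ran together over the pigs when only the group means were removed. After the group means were removed, the log2 levels of both genes correlated over 18 pigs with a Pearson r of 0.726 (permutation P = 0.00018, adjusted p = 0.00378 over 21 pairs) and a Spearman rho of 0.727 (permutation P = 0.00083, adjusted p = 0.0174). Within the groups r was 0.852 for CON, 0.712 for IM5 and 0.869 for IM10, and without the 2 pigs farthest from the median IRS1 level it was 0.717. Leaving out each pig in turn gave r between 0.682 and 0.756. These permutations take no account of the replicate number, which the 3 groups share. Replicate 1 had the lowest MSTN level of its group in all 3 groups (6.97, 7.03 and 6.22), and the mean deviations of replicates 1 and 6 from their group means were -0.76 and -0.38 for MSTN and -0.47 and -0.52 for IRS1. With the means of the replicate numbers removed as well, an alternative added after the values had been seen, r was 0.280 (permutation P = 0.404, adjusted p = 0.810), and 0 of 21 pairs of members passed even an unadjusted P of 0.05. What the numbers stand for is not given in the sources used here, and their part in the relation was not tested further. Both genes ran against the median of 7 endothelial marker probe sets, with an r of -0.668 for MSTN (permutation P = 0.00673, adjusted p = 0.165 over 98 relations) and of -0.623 for IRS1 (permutation P = 0.00413, adjusted p = 0.135), and the part of these markers in the relation was not tested. With the number means removed these r were 0.348 for MSTN and 0.0746 for IRS1. Nor was the r of 0.726 particular to the pair, since among 25387 other probe sets 0.890% had an r with MSTN as high as that of IRS1, and 1.01% had an r with IRS1 as high as that of MSTN.

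**Figure D3:**
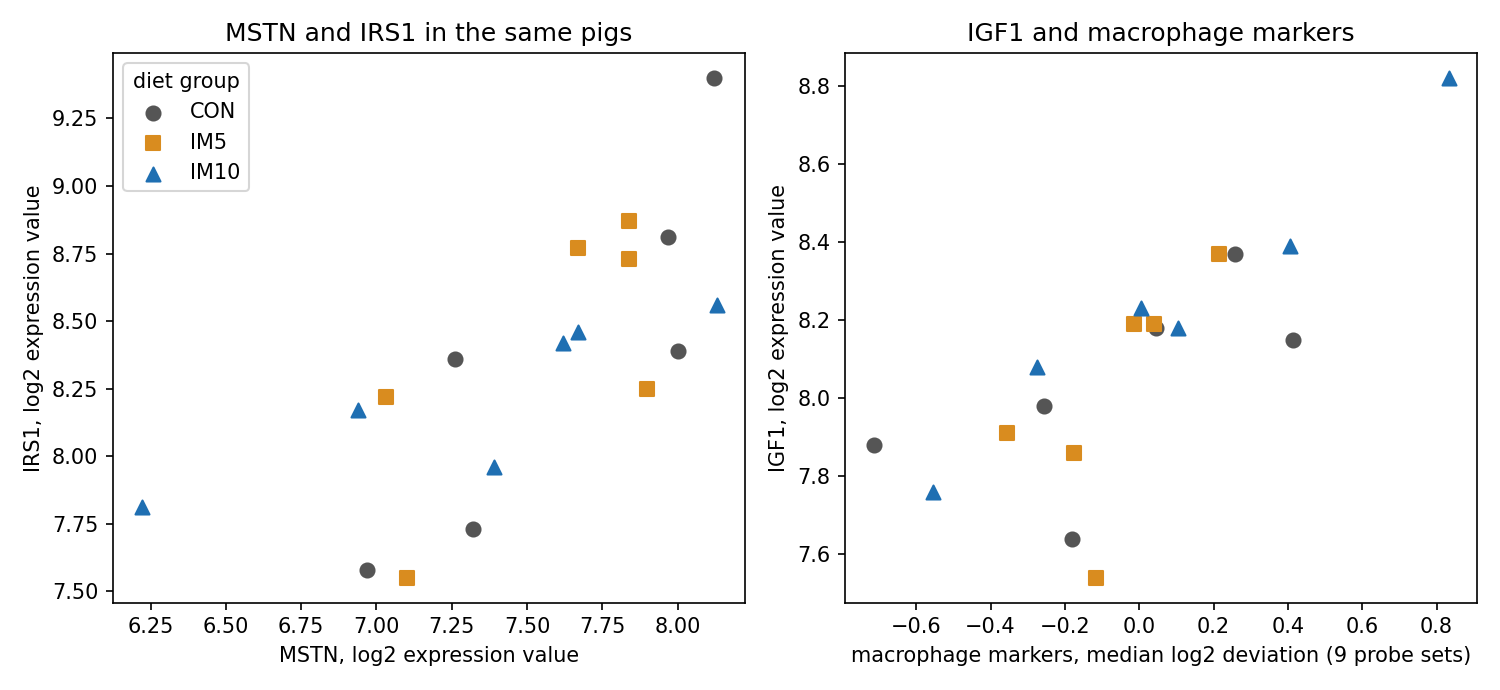
Log2 expression levels of each pig for MSTN against IRS1 (left), with group means kept, 1 point a pig and 1 colour a group. The right panel shows IGF1 against the median deviation of 9 macrophage marker probe sets from their means over all pigs. Both clouds rise from lower left to upper right in each of the 3 groups. After removal of group means, not drawn here, r was 0.726 on the left and 0.785 on the right over 18 pigs. Once the means of the replicate numbers were removed too, r was 0.280 and 0.804.

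Of the 21 pairs of members, with only group means removed, 1 passed an adjusted p of 0.05 and 2 an unadjusted P of 0.05. The second was MSTN with IGF1R, which ran in opposite directions (r of -0.457, permutation P = 0.0349, adjusted p = 0.354). MSTN and its receptor ACVR2B had an r of 0.455 and a rho of 0.676 (permutation P of rho = 0.00647, adjusted p = 0.0679), and MSTN and its antagonist FST an r of 0.362. IGF1 had an r of -0.174 with its receptor and of -0.0636 with IGFBP3, neither past the unadjusted threshold. Without replicate 6 of group IM5, IRS1 and ACVR2B also passed, with an r of 0.628 (adjusted p = 0.0253). This pig had the lowest IRS1 level (7.55) and the highest ACVR2B level (6.78) of all pigs.

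**Figure D4:**
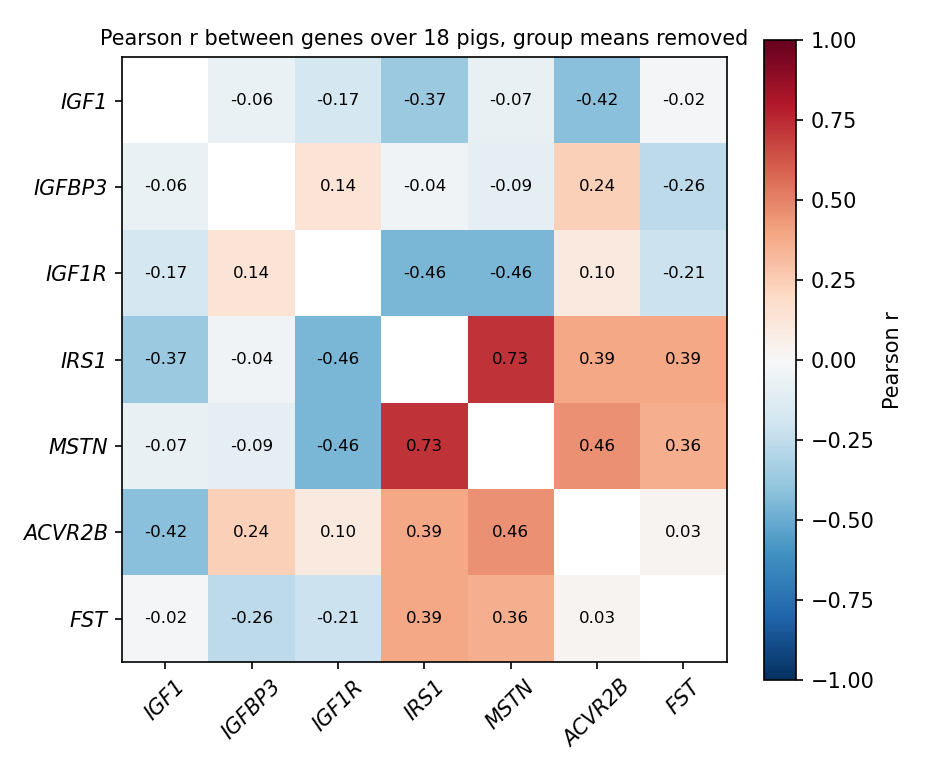
Pearson r between the log2 levels of each pair of the 7 members over 18 pigs after removal of group means, as coloured squares with the value printed. IRS1 with MSTN has the highest r, 0.726, and MSTN with IGF1R the lowest, -0.457.

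IGF1 followed macrophage markers from pig to pig. Its level correlated with the median of 9 probe sets of macrophage markers, which cover 8 of 10 genes of that list, with an r of 0.785 (permutation P = 0.00029, adjusted p = 0.0284 over 98 relations) and a rho of 0.808 (permutation P = 0.00011, adjusted p = 0.0108). The 98 relations, of each member to the gene lists and to measures of the arrays, were added after the values had been seen, and this was the only one of them with an adjusted p under 0.05 for r, while 10 had an unadjusted P under 0.05. Within groups r was 0.648 for CON, 0.677 for IM5 and 0.979 for IM10, and without the 2 pigs farthest from the median on the marker scale it was 0.739. With the means of the replicate numbers removed as well, r was 0.804 (permutation P = 0.00395), which did not pass the adjustment over 98 relations (adjusted p = 0.387). IRS1 and ACVR2B ran against the same markers, with an r of -0.570 and -0.618 (permutation P = 0.0114 and 0.0233, adjusted p = 0.186 and 0.254). Without the same 2 pigs these r were -0.398 and -0.188. With the number means removed as well they were -0.699 and -0.657 (permutation P = 0.0336 and 0.0451, adjusted p = 0.632 for both). The mean log2 level over these probe sets ran from 5.93 to 6.88 in group CON, from 6.10 to 6.69 in group IM5 and from 5.96 to 7.34 in group IM10. Replicate 2 of group IM10, the pig with the highest IGF1 level, had the highest value of all pigs for 7 of the 9 probe sets. None of the 9 was among the dimmest 30% of probe sets. The macrophage markers themselves were called in 0 of 9 cases in each of the 3 comparisons, and their part in the IGF1 values was not tested. In whole muscle, fewer cells of a type and less RNA per cell cannot be told apart.

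The named transcripts whose pattern over 18 pigs was most like that of a member were ranked among 12078 probe sets by r after removal of group means, as a description without a test. For IGF1 these were RGS2, a regulator of G protein signaling, with an r of 0.891, MSN (moesin, a linker of membrane and cytoskeleton) with 0.873 and LCP2, an adaptor protein of immune cells, with 0.862. For IRS1 they were ZNF318, a zinc finger protein, with 0.924, MYBPC2, the fast form of myosin-binding protein C, with 0.889 and RCSD1 with 0.871. For MSTN they were LMBRD1, a lysosomal membrane protein of cobalamin transport, with 0.924, GADL1 with 0.910 and CLOCK, a transcription factor of the circadian clock, with 0.904. ACVR2B was followed by C12H17orf75 with 0.878 and by TSC22D3, a gene induced by glucocorticoids, with 0.878 at both of its probe sets, whose values were identical. For IGF1R the nearest were PROM1 with 0.869 and MYH7B, a myosin heavy chain, with 0.815, ahead of DLG3 with 0.800. For IGFBP3 they were UNC45A, a myosin chaperone, with 0.790, TMEM212 with 0.754 and KLHL9 with 0.735, and for FST MIR9-1 with 0.828 at both of its probe sets and HHIPL2 with 0.802. Of these, DLG3, TMEM212 and MIR9-1 were among the dimmest 30%. An r of at least 0.7 was reached by 371 probe sets for IRS1, 294 for IGF1 and 292 for MSTN, but by 98 for ACVR2B, 71 for IGF1R, 52 for FST and 19 for IGFBP3. In the opposite direction, an r of at least that size was reached by 176 for IRS1, 68 for IGF1 and 264 for MSTN. There the counts were 113 for ACVR2B, 140 for IGF1R, 54 for FST and 10 for IGFBP3, each among 25387 other probe sets. These nearest patterns and counts take no account of the replicate number.

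Beyond the members, the genes of the pathway were counted over 4 lists with 84 probe sets of 81 genes. In group IM10 compared with group CON, 0 were called higher and 3 lower, which is 3.57% against 2.29% of all probe sets, and the median difference was -0.01 on the log2 scale. In group IM5 compared with group CON, 2 were called higher and 0 lower, 2.38% against 2.10%, and in group IM10 compared with group IM5, 0 were higher and 1 lower, 1.19% against 2.75%. All of these calls rest on unadjusted P-values, since no gene of the lists passed an adjusted p of 0.05 in limma.

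Among 20 probe sets of the IGF and growth hormone axis, STAT5A, a transcription factor activated by the growth hormone receptor, was called lower at 1 of its probe sets in group IM10 compared with group CON (log2 difference -0.27, SE 0.112, limma P = 0.0267, exact permutation P = 0.0325, adjusted p = 0.991), while the other probe set differed by -0.04. The call was lost in 6 of 26 alternatives, each of them a fit without 1 pig (replicate 2, 4 or 5 of group CON, or 1, 3 or 5 of group IM10). The insulin and IGF signaling list, from receptors to the regulators of translation, had 0 of 29 probe sets called in each comparison. Of 24 probe sets for myostatin, activin and TGF-beta signaling, SMAD6, an inhibitory SMAD, was called lower in group IM10 compared with group CON (log2 difference -0.27, SE 0.0993, limma P = 0.0130, exact permutation P = 0.0087, adjusted p = 0.991). This call too was lost in 6 of 26 alternatives, namely a further quantile normalization and the fits without replicate 2 or 4 of group CON or replicate 1, 2 or 3 of group IM10.

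Of 11 probe sets for muscle growth and atrophy targets, 1 was called lower in group IM10 and 2 were called higher in group IM5, each compared with group CON. These are 9.09% and 18.2% of a short list, against 2.29% and 2.10% of all probe sets, and enrichment was not tested. FOXO1, a transcription factor that AKT holds out of the nucleus and that drives protein breakdown genes, had log2 levels of 5.58 to 5.68 (median 5.62) in group CON, 5.29 to 5.74 (median 5.47) in group IM5 and 4.87 to 5.53 (median 5.28) in group IM10. Every pig of group IM10 was thus below every pig of group CON, as happened for 0.213% of all probe sets in this comparison. The difference was -0.41 (SE 0.105, limma P = 0.0008, exact permutation P = 0.0022, the smallest that 6 pigs against 6 can give, adjusted p = 0.991), an FC of 0.752, and it kept its call in all 26 alternatives (-0.47 to -0.34).

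FBXO32, which encodes the muscle ubiquitin ligase atrogin-1, had log2 levels of 5.55 to 7.07 (median 6.40) in group CON, 6.78 to 7.86 (median 7.41) in group IM5 and 6.18 to 7.16 (median 6.69) in group IM10. Group IM5 stood highest, with some overlap with both other groups. Compared with group CON, group IM5 had a 2.00-fold level (log2 difference 1.00, SE 0.225, limma P = 0.0002, exact permutation P = 0.0065, adjusted p = 0.998). Group IM10 was lower than group IM5 (log2 difference -0.68, SE 0.225, limma P = 0.0063, exact permutation P = 0.0108, adjusted p = 0.931). Both calls were kept in all 26 alternatives (0.83 to 1.13 and -0.80 to -0.58). Between groups IM10 and CON the difference of 0.31 was not called. FBXO21, an F-box protein of another ubiquitin ligase, had a level higher by 0.28 in group IM5 compared with group CON (SE 0.0990, limma P = 0.0098, exact permutation P = 0.0022, adjusted p = 0.998), a call lost in the fits without replicate 3 or 5 of group CON or replicate 6 of group IM5. Its lowest pig in group IM5, at 6.35, lay above the highest of group CON, at 6.33, as 0.150% of all probe sets did without overlap in either direction. Over all 25388 probe sets, limma gave 1 probe set with an adjusted p under 0.05 between groups IM10 and CON and 0 in the other comparisons, against 1112, 939 and 1324 at an unadjusted P under 0.05.

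**Figure D5:**
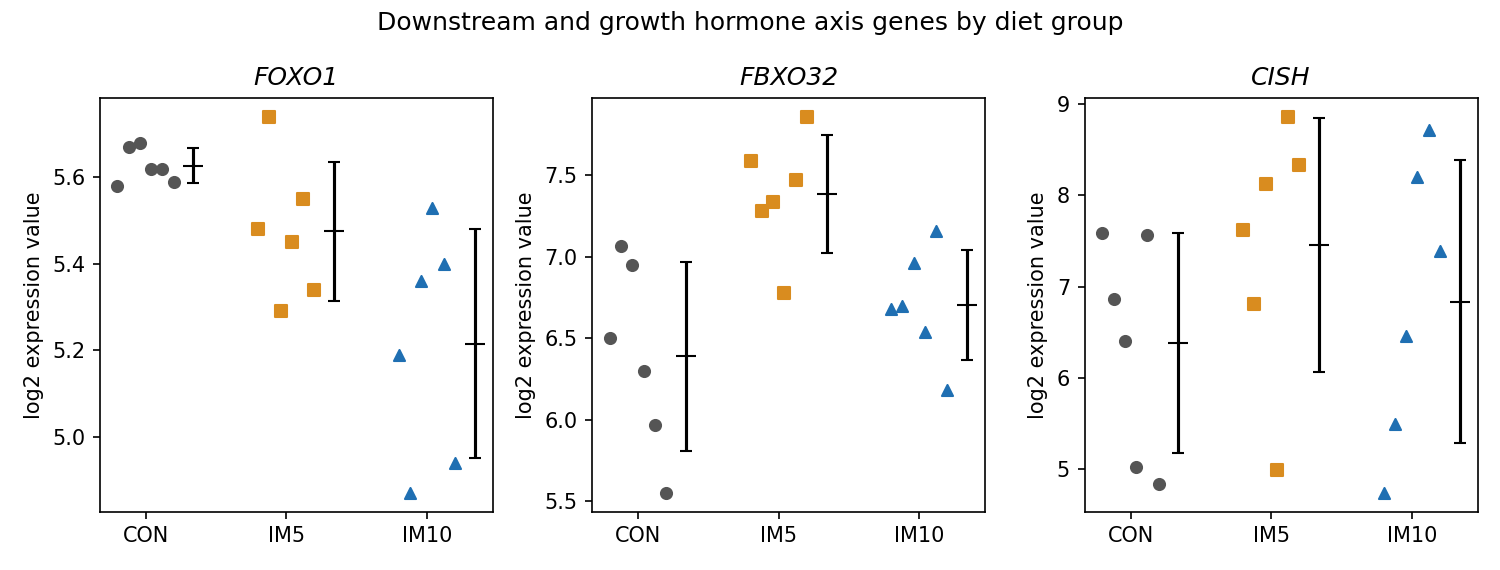
Log2 expression level of FOXO1, FBXO32 and CISH in each of 6 pigs of groups CON, IM5 and IM10, with group means and SD as bars. FOXO1 of group IM10 lies below all pigs of group CON, FBXO32 is highest in group IM5, and CISH scatters widely in every group.

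CISH, a suppressor of cytokine signaling that STAT5 induces, belongs to the growth hormone list and was chosen for description after its values had been seen. It ranged from 4.84 to 7.59 (median 6.64) in group CON, from 4.99 to 8.86 (median 7.87) in group IM5 and from 4.74 to 8.72 (median 6.93) in group IM10. Each group held pigs near 5 and pigs near or above 7.5 on the log2 scale. Its difference between groups IM5 and CON, 1.07, was the largest of that list in this comparison but lay within the spread of the pigs (limma adjusted p = 0.998), as did that of 0.45 between groups IM10 and CON (adjusted p = 0.993).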

How the data were processed

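Total RNA of the muscle was hybridised to 18 Porcine Gene ST arrays, 1 a pig. The authors deposited log2 expression values, computed in Affymetrix Expression Console by RMA, which corrects for background, equalizes the arrays and combines the probes of a set, and these were used without further normalization. RMA puts arrays on 1 distribution, so that a shift common to all transcripts is not seen, and the number of arrays limits the precision. The build behind the probe annotation is not given in the sources used here, and neither are scan batches, so that batches were not tested. Gene names came from the array annotation, in which 13327 probe sets had 1 name, 357 several and 11704 none.

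Group means were fitted to all arrays at once over 25388 probe sets with limma 3.58.1 under R 4.3.3, with Benjamini-Hochberg adjustment over all of them. The thresholds, an unadjusted P under 0.05 and an FC beyond 1.2, are those of the study. Correlations between pigs were tested by 100000 permutations within groups, and again with replicate number means removed, added after the values had been seen (Python 3.11.15, scipy 1.17.1), two-sided. The text names all members, the called genes of each list (up to 4 a list and direction by lowest P) and the 3 named transcripts most like each member. CISH was added after its values had been seen. The members, lists and tests were chosen with earlier results of these data known. The fit was also run on simulated data with noise drawn independently for each probe set and array. Structure shared between arrays or between probe sets was not simulated. Alternatives were a fit of 2 groups, the unpaired test of the methods, the replicate number as a block, a filter on the dimmest 30%, further normalization, array weights, another prior and each pig left out in turn. Liver and qPCR data were not analysed here.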

Additional observations from a re-analysis of the deposited data

How the results depend on the processing

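All differences of the members kept their side of the thresholds under the 8 alternative settings in each comparison. The sign turned for IRS1 between groups IM5 and CON with array weights (-0.0159, against 0.02). Leaving out 1 pig in turn gave 0 to 1 members called between groups IM10 and IM5 (1 without replicate 5 of group IM10, IGF1), 0 in the other comparisons, and 1 to 2 correlated pairs of members (2 without replicate 6 of group IM5). It turned the sign of small differences between groups IM5 and CON, with ranges of -0.10 to 0.0707 for IGF1, -0.14 to 0.22 for IRS1, -0.17 to 0.0633 for MSTN, -0.0477 to 0.0723 for IGF1R and -0.15 to 0.0317 for FST, and between groups IM10 and CON of -0.31 to 0.056 for IRS1 (without replicate 2 of group CON) and -0.087 to 0.0013 for IGFBP3 (without replicate 3 of group IM10). The pigs whose omission turned a sign between groups IM5 and CON were replicates 1 and 5 of group CON and 4 and 6 of group IM5 for IGF1, 1 and 6 of CON and 3, 4 and 5 of IM5 for IRS1, 2, 4 and 5 of CON and 1 and 6 of IM5 for MSTN, and 6 of IM5 for IGF1R and FST. Between groups IM10 and CON, MSTN ranged from -0.44 to -0.06 and FST from 0.0013 to 0.15, and between IM10 and IM5 MSTN from -0.40 to -0.0133 and IGF1R from -0.12 to -0.0023 (without replicate 6 of group IM5).

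Over all probe sets the test of the methods called 351 between groups IM5 and CON, against 532 in limma. Without the dimmest 30% the calls were 354 between groups IM10 and CON, 282 between IM5 and CON and 394 between IM10 and IM5, against 582, 532 and 698, with fewer probe sets tested. The calls among the pathway lists ranged over all alternatives from 2 to 5, from 1 to 5 and from 1 to 4 in these comparisons.

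With the replicate number as a block, 654, 590 and 766 probe sets were called and 0 members in each comparison, and MSTN between groups IM10 and CON had a limma P of 0.0701 (adjusted p = 0.943) at the same difference of -0.28. Of 21 pairs of members, 1 passed an adjusted p of 0.05 without and 0 with the block, and of 98 relations to the lists 1 without and 0 with it. Of 18 pairs with the same number, 5 had correlated deviations over 0.1 (range -0.122 to 0.305). This count cannot decide whether the numbers pair the pigs, since a shared factor need not act on every number. The main fit left the numbers out. The 3 pairs of number 1 stood at 0.222, 0.305 and 0.301 and those of number 6 at 0.0804, 0.236 and 0.0335. Those of numbers 2 to 5 ran from -0.122 to 0.101, and the median over all 18 pairs was 0.0396. Of 18 arrays, 6 correlated best, among arrays of the other groups, with one of their own number, a count not compared with chance. Whether some numbers share more than a name was not tested.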

Other observations

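Among markers of other cells in muscle, most probe sets were called in no comparison. This held for 10 probe sets of muscle fibres, 6 of adipocytes, 10 of fibroblasts and connective tissue, 9 of macrophages, 3 of blood and 1 of Schwann cells. Even so, the slow-fibre markers had higher means in groups IM5 and IM10 than in CON. These were 10.85 and 10.87 against 10.37 for MYH7, 11.67 and 11.66 against 11.21 for MYL2, and 10.68 and 10.72 against 10.26 for MYL3. The fast marker MYH1 had means of 12.85 and 12.93 against 12.88. CXCR4, a chemokine receptor on the satellite cell list of 3 probe sets, was called higher compared with group CON, by 0.36 on the log2 scale in group IM10 (exact permutation P = 0.0065, limma adjusted p = 0.991) and by 0.30 in group IM5 (exact permutation P = 0.0281, limma adjusted p = 0.998). Immune cells carry CXCR4 as well. Of all probe sets, 2.29% and 2.10% were called in these comparisons. CALCR and CD34 of the same list were not called, with differences from group CON of 0.078 and -0.038 in group IM10 and of 0.055 and 0.047 in group IM5. Of 6 lymphocyte probe sets, CD3E and CD2, both of T cells, were called higher in group IM10 compared with group IM5, by 0.36 and 0.48 (adjusted p = 0.931 for both in limma). Their exact permutation P was 0.0606 and 0.108, both above 0.05. These calls are 33.3% of a short list, against 2.75% of all probe sets. CD79A and LCK of the same list had lower means in group IM10 (3.85 and 4.73) than in group IM5 (3.96 and 4.75). Of 7 endothelial probe sets, KDR was higher in the same comparison by 0.30 (adjusted p = 0.931 in limma), from a probe set among the dimmest 30%, and its other, brighter probe set also differed by 0.30 without being called (SE 0.159, adjusted p = 0.931 in limma).

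None of the 21 sets of 6 values, 1 for each member and group, held a pig far enough from the others to pass Dixon's 95% critical value of 0.625, where chance alone would pass about 1.05.

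IGF1 also ran with the 6 lymphocyte probe sets over 18 pigs, with an r of 0.564 (permutation P = 0.0106) and a rho of 0.663 (permutation P = 0.00252). MSTN ran against the 3 satellite cell probe sets, with an r of -0.535 (permutation P = 0.0160), and IRS1 with an r of -0.607 (permutation P = 0.00348). None of these r passed an adjusted p of 0.05 over 98 relations, and these permutations take no account of the replicate number. With the number means removed as well, r was 0.576 for IGF1, -0.345 for MSTN and -0.455 for IRS1. The permutation P were then 0.0664, 0.271 and 0.122, all above 0.05.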
